A study of Mus musculus with 203 samples.

Results

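Tetraspanins are small membrane proteins that cross the membrane 4 times and gather integrins, immunoglobulin-domain proteins and proteases into patches of the cell surface and of endosomes. In the nervous system they have been studied in axon outgrowth, in the myelinating glia and in the trafficking of receptors. Described here are 10 tetraspanin genes, Cd9, Cd81, Cd63, Cd82, Cd151, Tspan3, Tspan5, Tspan7, Tspan13 and Tspan18, out of 24029 genes counted in single neurons of the mouse nucleus ambiguus (Amb). Cd9 was chosen from its measured difference between types of Amb neuron. The other 9 were listed beside it by family, with earlier results of these data known. The study's own lists of genes that differ between types hold both Cd9 and Tspan18. The levels below are therefore a description, and no test was made of them.

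Each of the 203 samples was 1 neuron of a wild-type C57BL/6 mouse (C57BL/6NCrl in the study's methods), labeled with a fluorescent conjugate of cholera toxin B, a tracer carried from nerve terminals back to the cell body. The tracer was injected at postnatal day 1, and the neurons were aspirated from brainstem slices at postnatal day 2 to 4 and sequenced by Smart-seq2, which amplifies the full-length cDNA of 1 cell. The deposited annotation placed 151 neurons traced from the pericardial space in the types ACP (n = 53) and ACV (n = 98), which the authors clustered from these same counts, and 52 neurons traced from the cricothyroid muscle of the larynx, in separate mice, in the type Larynx. No mouse or plate was given for a neuron, so each type counts as 1 sample and no p-value was drawn from neurons, and the SDs below are the spread over neurons.

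A level is the count of a gene per 1000000 counts of the neuron outside Rn45s, the 45S pre-ribosomal RNA, and is written CPM. Rn45s took a median of 34.3% of the counts of ACP, 35.8% of ACV and 58.6% of Larynx neurons, and the counts outside it had medians of 1115375, 1120511.5 and 560892, with 118492 in the shallowest neuron, a Larynx neuron. The types carried their markers, with medians of the summed level of Calb1 and Pappa2 of 391 in ACP against 0 in ACV neurons, of Bche and Hoxa5 of 483 in ACV against 9.16 in ACP neurons, and of Calca, Calcb and Dlk1 of 2102 in Larynx against 29.6 and 27.4 in ACP and ACV neurons. Nefl and Snap25, which mark neurons, and Slc18a3, the vesicular acetylcholine transporter, were detected in every neuron. The summed level of 4 neuronal genes had medians of 10119, 14360 and 13993 in ACP, ACV and Larynx neurons, that of 5 genes of cholinergic motor neurons 1884, 1642 and 2398, and Tbx3, a marker of heart-traced neurons, 54.1, 36.8 and 0. Mice, tracer site, depth and share of Rn45s all differ between heart-traced and Larynx neurons and cannot be told apart.

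The genes share a family signature in the large extracellular loop, a Cys-Cys-Gly motif whose cysteines form disulfide bonds. The coding bases around it are shown because the motif is what the 10 genes share. They were read from GENCODE vM21 transcripts (GRCm38, the assembly also named mm10), 5′ to 3′ on the coding strand, with the 3 codons of the motif in capitals. In each gene except Tspan13 the stretch spans an exon junction.
Cd9: gcgttggacTGCTGTGGCatagctggt
Cd81: acgctcaacTGTTGTGGCtccaacgca
Cd63: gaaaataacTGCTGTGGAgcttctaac
Cd82: caggtcaagTGCTGTGGCtgggtcagc
Cd151: gagttccacTGTTGTGGCagcaacaac
Tspan3: cagttgcacTGTTGTGGAattcataac
Tspan5: tattggcagTGCTGTGGGgcttttgga
Tspan7: agcctgagcTGCTGTGGCgtgcagaac
Tspan13: aatttgaacTGCTGTGGCttccggagc
Tspan18: acatttggcTGCTGTGGGgtcaacgga

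The motif began at residue 150 of the 226 of Cd9, at residue 156 of the 236 of Cd81 and at residue 128 of the 204 of Tspan13, the shortest protein of the set. The longest was Tspan5 with 268 residues. Cd9 and Cd81 were the closest pair, with 47.1% identical residues over 225 aligned, and Tspan7 and Tspan13 the most distant, with 21.3% over 202. Protein lengths and identities were computed from the translated coding sequences. GENCODE also lists processed pseudogenes of Cd9 and Cd63, and how reads shared with them were counted is not given in the sources used here.

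Cd9 lies on chromosome 6 from 125460266 to 125494791 on the minus strand. Its protein is the tetraspanin best known from sperm and egg fusion, and it binds integrins and the immunoglobulin-domain proteins encoded by Ptgfrn and Igsf8. In ACV neurons its level ran from 0 to 2911, with a median of 821 and a mean of 890 ± 580 (SD, n = 98). In ACP neurons it ran from 0 to 436, with a median of 46.1 and a mean of 75.3 ± 90.9 (SD, n = 53). In Larynx neurons it ran from 0 to 532, with a median of 8.74 and a mean of 48.0 ± 90.8 (SD, n = 52). ACV neurons were the high type, with 75 of 98 above the highest ACP neuron and 70 above the highest Larynx neuron. No ACP or Larynx neuron reached the ACV median, while the ACP and Larynx ranges overlapped over nearly their whole extent.

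**Figure D1:**
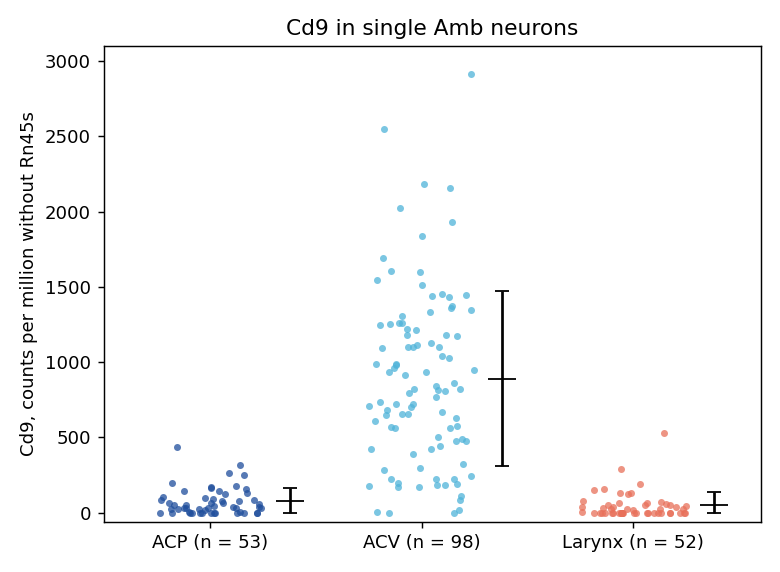
Level of Cd9 (CPM without Rn45s, linear axis) in each neuron by type, with the mean and SD over neurons beside each group, the lower bar stopped at 0. ACV neurons reach 2911, whereas the highest ACP and Larynx neurons lie at 436 and 532.

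The mean of Cd9 was 11.8-fold higher in ACV than in ACP neurons (log2 ratio 3.56), the rank of 102 among the 13356 genes with a count in 10% or more of the neurons of either type. It was 18.5-fold higher in ACV than in Larynx neurons (log2 ratio 4.21). ACP over Larynx gave 1.57 (log2 ratio 0.65), where the SD over single neurons of log2(CPM + 1) was 3.04. Both ratios to Larynx neurons depended on the scaling, and with totals that include Rn45s they were 34.8 for ACV and 2.83 for ACP. Since Cd9 was chosen from such a difference, these ratios describe the choice.

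At least 1 count of Cd9 was found in 96 of 98 ACV neurons (98.0%, exact Clopper-Pearson 95% interval 92.8 to 99.8%), in 40 of 53 ACP neurons (75.5%, 61.7 to 86.2%) and in 27 of 52 Larynx neurons (51.9%, 37.6 to 66.0%). These intervals cover counting error only, because PCR copies of 1 molecule cannot be recognized without molecular identifiers. With each neuron thinned to 118492 counts the shares were 96.9%, 71.7% and 48.1%, in the same order. The types differed more in level than in detection. A level of at least 100 was reached by 93 ACV, 15 ACP and 8 Larynx neurons, and a level of at least 1000 by 38 ACV neurons and none of the others.

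A few neurons lay outside their type. Among ACV neurons 5 were under a level of 100, of which 2 had more than 70% of their counts on Rn45s (73.1% and 82.5%) and the other 3 did not (34.3%, 44.1% and 35.9%). The ACV neuron at a level of 15.2 had Hoxa5, the ACV marker, at 514, and one with no count of Cd9 in 1092374 had Bche at 144. The other ACV neuron with no Cd9 had Hoxa5 at 281 but also Calca at 563 and Calb1 at 101, markers of the other types, and the one at 6.38 had neither Hoxa5 nor Bche. Of the 4 ACP neurons at 200 or more, 3 had at least 1105936 counts outside Rn45s and no Hoxa5, while the highest (436) was also the shallowest ACP neuron, with 330407. The highest Larynx neuron (532) rested on 63 counts of Cd9 in the neuron of 118492 counts, which had 91.5% Rn45s and Apoe at 13925, and none of Calca. Without it the ratio of ACV to Larynx was 23.1.

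Aspirated neurons can carry fragments of neighboring glia, and Cd9 is also expressed by oligodendrocytes and astrocytes. Apoe, which astrocytes express strongly, was therefore set beside Cd9. Its level ran from 2.87 to 7966 in ACP neurons (median 892), from 0 to 30238 in ACV neurons (median 855) and from 0 to 13925 in Larynx neurons (median 977). Its means were 1243, 2085 and 1384, the highest in ACV neurons. The study's methods removed neurons with over 1800 counts of Apoe, yet 39 neurons above this limit were among the deposited counts, 11 ACP and 28 ACV. Whether the limit was set on the scale of the deposited counts is not known.

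Within ACV neurons Pearson's r of the log levels of Cd9 and Apoe was -0.05 and Spearman's rho -0.13 (n = 98). It was -0.12 and -0.15 in ACP (n = 53) and 0.31 and 0.19 in Larynx neurons (n = 52). These are descriptions over neurons that share plates and amplification. The ACV neurons with at most 900 counts of Apoe had a mean Cd9 of 911 ± 554 (SD, n = 44), those with more, up to 1800, had 910 ± 657 (SD, n = 26) and those with over 1800 had 837 ± 564 (SD, n = 28). Mean Cd9 in ACV neurons was thus no lower in the class with the least Apoe, and the part of glial reads in it was not tested. The ACP means in the same classes were 76.3 ± 76.0 (n = 26), 82.8 ± 124 (n = 16) and 62.1 ± 71.6 (n = 11), and the Larynx means were 35.4 ± 54.5 (n = 38) and 82.1 ± 149 (n = 14). The classes were cut on counts, so the same class held unlike levels of Apoe. With at most 900 counts the median Apoe level was 388 in ACP, 306 in ACV and 819 in Larynx neurons.

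**Figure D2:**
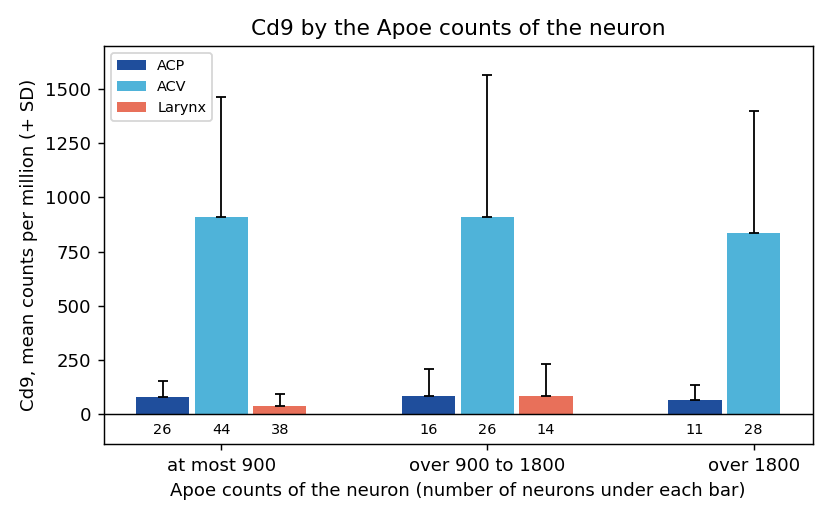
Mean level of Cd9 (CPM without Rn45s, bars from 0, upper error bar 1 SD over neurons) in classes of neurons by their Apoe counts, with the number of neurons under each bar. ACV bars stand at 911, 910 and 837, and no Larynx neuron had over 1800 Apoe counts.

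The neurons at the ends of the Apoe range varied. In the 3 ACV neurons with no count of Apoe, Cd9 had 193, 832 and 0 counts, at levels of 322, 821 and 0. The ACV neurons with 1 and 3 counts of Apoe had Cd9 at 1928 and 1370. In ACP neurons the 2 lowest in Apoe, with 3 and 6 counts, had Cd9 at 176 and 263, above the 75.3 of their type. The ACV neuron with the most Apoe, 45046 counts, had Cd9 at 2547, the second highest, and the ACP neuron with the highest Apoe level had no count of Cd9. In Larynx neurons the 3 lowest in Apoe had no count of Cd9. Restricted to neurons with at most 900 Apoe counts, the ratio of ACV to ACP was 11.9 and that of ACV to Larynx 25.7. The levels of Apoe in this class differed between types, as given above.

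**Figure D3:**
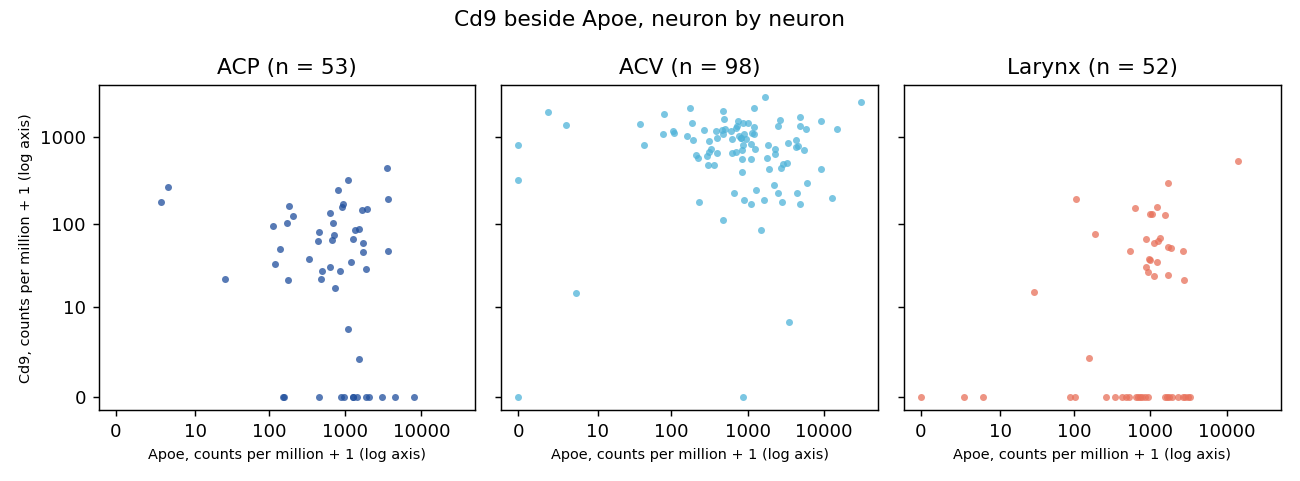
Cd9 against Apoe in each neuron (CPM without Rn45s plus 1, log axes), by type. Most ACV neurons lie high in Cd9 across the range of Apoe, and those with 1 and 3 counts of Apoe lie at 1928 and 1370, while 1 of the 3 at 0 Apoe is also at 0 Cd9.

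Oligodendrocytes express Cd9 in myelin. Summed here were 7 oligodendrocyte genes (Opalin, Mog, Mbp, Mag, Cnp, Mobp and Cldn11). Their summed level had a median of 281 in ACP (0 to 7496), 244 in ACV (0 to 7856) and 215 in Larynx neurons (0 to 5033). The median was highest in ACP and lowest in Larynx neurons. The means had another order, at 711 in ACP, 508 in ACV and 699 in Larynx neurons. All 7 genes had a count in ACV and Larynx neurons and 6 in ACP neurons, where Opalin was at 0. Opalin was also at 0 in 97 of 98 ACV neurons, whose mean Cd9 was 883. Mean Cd9 was 779 in the 23 ACV neurons at 0 for Mbp and 924 in those with a count of it. It was 867 in the 76 at 0 for Mag against 969, 815 in the 77 at 0 for Mobp against 1163, and 967 in the 16 at 0 for Cnp against 875. With a count it was also higher for Mog (968 against 873), Cldn11 (935 against 878) and Opalin (1548 in 1 neuron against 883). Mean Cd9 was thus high in ACV neurons at 0 for these genes, and higher with a count of each except Cnp. In ACP neurons mean Cd9 was higher with a count of Mog (135 against 59.7) or Mbp (78.0 against 65.2). It was lower there with Mag (60.9 against 82.2), Cnp (71.8 against 92.6), Mobp (31.9 against 89.4) or Cldn11 (68.5 against 77.1). The 10 Larynx neurons at 0 for Cnp had no count of Cd9, and the 42 with Cnp had a mean of 59.4. Larynx neurons with a count of Mbp or Mag also had the higher mean Cd9 (56.8 against 15.1 and 70.8 against 41.1). Those with a count of Mog, Mobp or Cldn11 had the lower (12.6 against 52.6, 24.9 against 55.7 and 45.6 against 49.7). The 1 with Opalin was at 130, against a mean of 46.4 in the others. The part of oligodendrocyte reads in these differences was not tested. The correlation of the summed list with Cd9 was 0.17 in ACV (n = 98), -0.14 in ACP (n = 53) and 0.25 in Larynx neurons (n = 52).

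Other cell types were summed in the same way. The summed level of 8 astrocyte genes had medians of 2006, 2277 and 2794 in ACP, ACV and Larynx neurons. Its means were 2561, 3496 and 3209, the highest in ACV neurons, and its r with Cd9 was -0.10, -0.06 and 0.23. The summed level of 8 microglial genes had medians of 102 in ACV and 91.7 in Larynx neurons, with ACP between them. The microglial means stood further apart, at 495 in ACV (highest 7151), 137 in ACP and 305 in Larynx neurons. Of these genes Cx3cr1 was 8.45-fold, C1qb 6.13-fold and Csf1r 5.85-fold higher in ACV than in ACP neurons. The microglial sum had r with Cd9 of 0.17 in ACV (n = 98), 0.03 in ACP (n = 53) and 0.09 in Larynx neurons (n = 52), and its part in Cd9 was not tested. The summed level of 5 genes of oligodendrocyte precursors (Pdgfra, Cspg4, Olig1, Olig2 and Sox10) had medians of 39.8, 29.8 and 70.5. Its r with Cd9 was 0.48 in ACP (n = 53), -0.26 in ACV (n = 98) and 0.29 in Larynx neurons (n = 52). Spearman's rho was weaker, at 0.29, -0.21 and 0.12. The part of glial reads in the Cd9 of ACP, ACV and Larynx neurons was not tested. Endothelial and mural sums had medians of 0 in all 3 types, and fibroblast sums of 3.06, 3.74 and 15.5.

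Depth moved with Cd9 inside ACV neurons. Its log level had r = 0.43 with the log of the counts outside Rn45s and r = -0.44 with the percent of Rn45s (n = 98). In ACP neurons these were -0.04 and -0.03 (n = 53). Spearman's rho was 0.29 and -0.34 in ACV neurons, against 0.12 and -0.13 in ACP neurons. With neurons of at least 500000 counts outside Rn45s (91 ACV and 51 ACP neurons) the ratio of ACV to ACP was 13.4. ACP and ACV neurons had like medians of depth, of 1115375 and 1120511.5.

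Read beside all other genes, Cd9 was most like Hoxa5, a homeobox gene of the caudal hindbrain and cord and one of the ACV markers (r = 0.71 over 203 neurons, among 10590 genes with a count in 25% or more of neurons, whose median r was -0.0044). It was followed by Vstm2a at 0.66, Cd24a, which encodes a lipid-anchored surface glycoprotein, at 0.66, the homeobox gene Hoxc4 at 0.64 and Susd5 at 0.64. Hoxa5 had the same step between types, with means of 443 in ACV, 10.6 in ACP and 12.6 in Larynx neurons. Vstm2a, Cd24a, Hoxc4 and Susd5 also had their highest means in ACV neurons. Cd9 was chosen from its difference between types, so a ranking over the pooled types favors genes with the same step. The pooled ranking thus partly restates the choice of Cd9, and of its genes only Vstm2a recurs in the ranking within ACV neurons. Within ACV neurons alone the most like were Syngr3, which encodes a synaptic vesicle protein, at 0.75, Vstm2a at 0.73, Saraf, which encodes a regulator of calcium entry, at 0.73, Atp1b1, the beta subunit of the sodium pump, at 0.71 and Ache, acetylcholinesterase, at 0.70 (n = 98). These 5 genes had r of 0.39 to 0.59 with the log of depth in the same neurons, and the part of depth in their likeness to Cd9 was not tested.

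Read across the set, 7 of the 10 genes differed by less than 2-fold between ACV and ACP neurons, and all 10 passed the filter of a count in 10% or more of either type. Higher by at least 2-fold in ACV than in ACP neurons were Cd9, Cd82 and Tspan18, 3 of 10 beside 8.63% of all genes tested, and none was lower, beside 9.87%. Cd9 was chosen from this difference, and the study listed Tspan18 as enriched in ACV over ACP from the same neurons. The share of 3 of 10 thus partly describes the choice of genes. In ACP over Larynx neurons none was higher, beside 10.3% of all genes, and 2 were lower (Cd82 and Tspan18), beside 12.5%. In ACV over Larynx neurons 2 were higher (Cd9 and Cd82), beside 10.4%, and 1 was lower (Tspan5), beside 14.0%. The median ratio over the 10 genes was 0.986, 1.28 and 1.20 in these comparisons, and over all genes 0.998, 0.980 and 0.982. The comparisons share neurons and are not independent of each other.

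Nearest the 2-fold limit were Cd82, just past it (0.498), and Tspan5, just short of it (0.504), both in ACP over Larynx neurons. Leaving out any 1 of 52 single neurons of 105 ended the call of Cd82, and any 1 of 33 made one of Tspan5, so both stand at the limit. For the other members, and in the other comparisons, leaving out any single neuron changed no call. Scaling by totals that include Rn45s moved the median log2 ratio over all genes from -0.03 to 0.58 in ACP over Larynx neurons, and the genes past the limit from 1369 higher and 1653 lower to 3399 and 695. In ACV over Larynx neurons it moved from -0.03 to 0.52, and the genes from 1382 and 1858 to 3281 and 955. The members' counts at that scaling were 3 higher and 1 lower in ACP, and 4 higher and 0 lower in ACV, than in Larynx neurons.

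**Figure D4:**
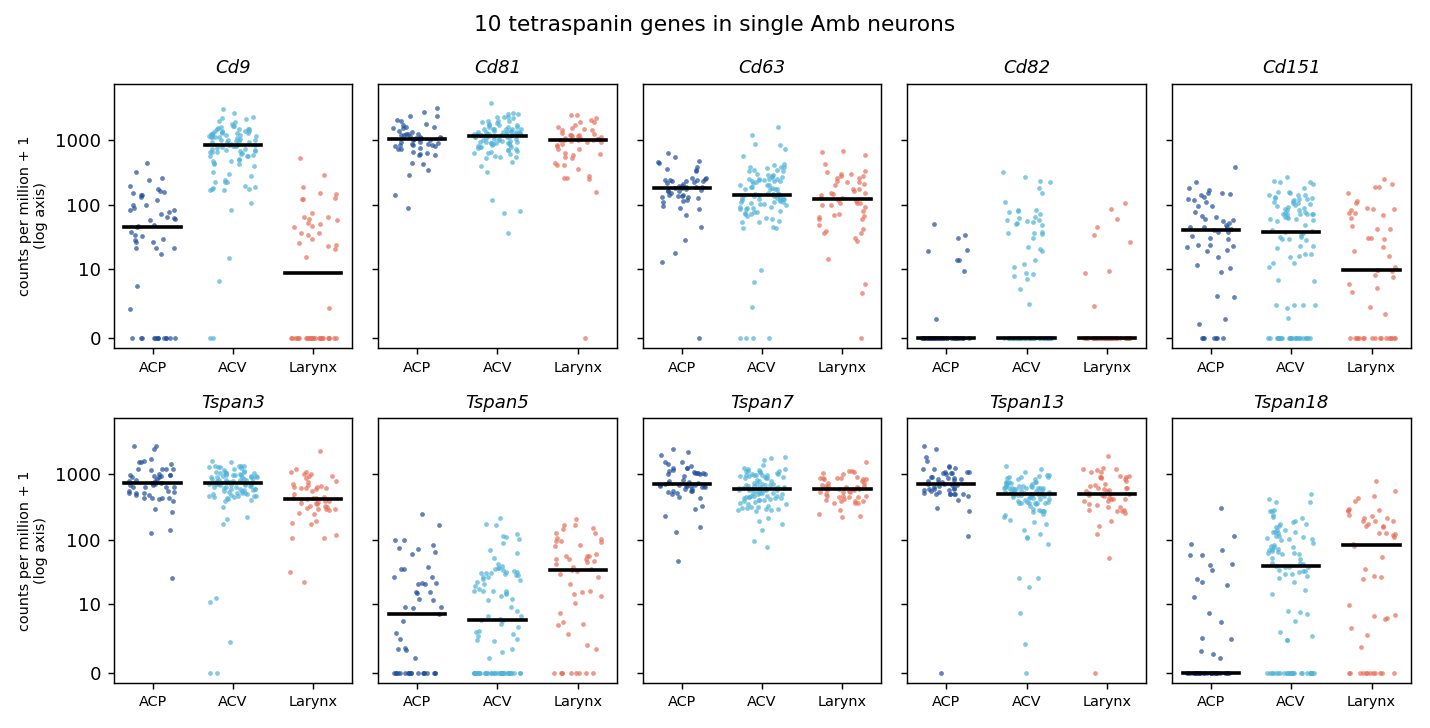
Level of each of the 10 genes in every neuron (CPM without Rn45s plus 1, log axis) by type, with a black line at the median. Cd9 stands apart in ACV neurons with a median of 821, the medians of Cd82 lie at 0 in all types, and Tspan18 has medians of 0, 39.8 and 84.6 in ACP, ACV and Larynx neurons.

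Cd82 and Tspan18 are neighbors on chromosome 2, both on the minus strand. Tspan18 runs from 93201760 to 93334505 and Cd82 from 93419111 to 93463140, with 84.6 kb and no protein-coding gene of GENCODE vM21 between them. Cd82, known for restraining cell motility, was detected in a minority of each type. Its levels ran from 0 to 321 in ACV (mean 28.2 ± 60.2, SD, n = 98), from 0 to 51.5 in ACP (3.73 ± 10.3, n = 53) and from 0 to 110 in Larynx neurons (7.50 ± 22.2, n = 52), with a median of 0 in each. It had a count in 38 of 98 ACV neurons (38.8%, 29.1 to 49.2%), 9 of 53 ACP neurons (17.0%, 8.07 to 29.8%) and 9 of 52 Larynx neurons (17.3%, 8.23 to 30.3%).

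The mean of Cd82 was 7.55-fold higher in ACV than in ACP neurons and 3.76-fold higher than in Larynx neurons. Its distributions overlapped at 0, and 20 of 98 ACV neurons lay above the highest ACP neuron and 7 above the highest Larynx neuron. On the difference of mean log2 levels, which weighs the many neurons at 0, the ratio of ACV to ACP was 2.65. In ACV neurons 37 of the 38 with Cd82 also had Cd9, and so had 59 of the 60 without Cd82. Mean Cd9 was 1019 in ACV neurons with Cd82 against 808 in those without.

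Tspan18, which encodes a tetraspanin known to act in endothelial calcium signaling, had a different order. In Larynx neurons it ran from 0 to 780 with a median of 84.6 and a mean of 134 ± 167 (SD, n = 52). In ACV neurons it ran from 0 to 499 with a median of 39.8 and a mean of 77.8 ± 102 (n = 98), and in ACP neurons from 0 to 308 with a median of 0 and a mean of 17.4 ± 47.7 (n = 53). ACP neurons were the low type, with 20 of 53 detected (37.7%, 24.8 to 52.1%) against 71 of 98 ACV (72.4%, 62.5 to 81.0%) and 40 of 52 Larynx neurons (76.9%, 63.2 to 87.5%). Of the 53 ACP neurons 50 lay below the Larynx median.

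The mean of Tspan18 was 4.48-fold higher in ACV and 7.70-fold higher in Larynx than in ACP neurons. ACV over Larynx gave 0.582, within the 2-fold limit, where the SD over single neurons of log2(CPM + 1) was 3.17. Thinned to a common depth, Tspan18 was detected in 22.6% of ACP, 69.4% of ACV and 67.3% of Larynx neurons. Without the ACP neuron at 308, the next at 116, the ratio of ACV to ACP was 6.61. In single ACV neurons Tspan18 and Cd9 had r = -0.22, and Tspan18 and its neighbor Cd82 had r = 0.19 (n = 98).

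Cd81 and Cd9 are close relatives that assemble with the same partners, and Cd81 is also known as an entry receptor of the hepatitis C virus. Cd81 was detected in all but 1 of the 203 neurons, a Larynx neuron. Its level ran from 92.5 to 3011 in ACP (mean 1095 ± 586, SD, n = 53), from 37.9 to 3537 in ACV (1169 ± 568, n = 98) and from 0 to 2389 in Larynx neurons (1006 ± 552, n = 52). The 3 means differed by at most 1.16-fold, well under the SD within a type. An antisense gene with a row of its own, R74862, overlaps Cd81 with 7490 summed counts against 240916, and whether strand was used in the counting is not given in the sources used here.

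Per length, Cd81 led the set in ACP and Larynx neurons and shared the lead with Cd9 in ACV neurons. Per kb of annotated exon, Cd9 stood at 435 CPM in ACV neurons and Cd81 at 406, whereas per kb of the main coding transcript Cd9 stood at 725 and Cd81 at 763. Their order thus depends on the length taken, and they do not differ beyond their spread. In ACP neurons Cd9 stood at 36.9 per kb of exon, the sixth of the 10, after Cd81 (380), Tspan13 (340), Tspan3 (204), Tspan7 (121) and Cd63 (56.2), and in Larynx neurons at 23.5, also sixth, after the same 5 genes in the same order. Cd82, Tspan5 and Tspan18 stood at 16.4 or less per kb of exon in each type. Per kb of the main transcript the order differed. Tspan3, Tspan7 and Tspan13 then followed Cd81 in this order in ACP neurons, and Tspan7, Tspan13 and Tspan3 in Larynx neurons. Cd9 was then sixth in ACP (61.3) and seventh in Larynx neurons (39.1), where Tspan18 stood at 111, against 64.6 in ACV and 14.4 in ACP neurons.

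Tspan3, Tspan7 and Tspan13 were abundant in all types. Tspan7, whose human counterpart is mutated in X-linked intellectual disability and which binds the AMPA receptor partner PICK1, was detected in every neuron, at 48.7 to 2374 in ACP (857 ± 476, SD, n = 53), 78.2 to 1808 in ACV (666 ± 347, n = 98) and 224 to 1511 in Larynx neurons (639 ± 265, n = 52). Tspan3, which assembles with a claudin of oligodendrocytes, had means of 870 ± 566, 750 ± 339 and 531 ± 378 in ACP, ACV and Larynx neurons, with ranges of 26.6 to 2636, 0 to 1573 and 22.3 to 2237. Tspan13, whose protein has been found bound to N-type calcium channels, had means of 841 ± 488, 507 ± 270 and 603 ± 359, with ranges of 0 to 2681, 0 to 1323 and 0 to 1861. Tspan13 was the member with the largest ratio in the other direction from Cd9, at 0.603 for ACV over ACP neurons, and 78 of 98 ACV neurons lay below the ACP median of 705. All 3 genes overlapped between types over most of their range.

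Cd63, a tetraspanin of late endosomes and of the vesicles they release, had means of 207 ± 131 in ACP, 211 ± 231 in ACV and 170 ± 154 in Larynx neurons (SD, n = 53, 98 and 52), with highest values of 633, 1575 and 679 and a lowest of 0 in each. In ACV neurons Cd63 moved with Apoe (r = 0.43, n = 98), with means of 130 ± 103 (n = 44), 227 ± 293 (n = 26) and 326 ± 265 (n = 28) in the classes of Apoe used for Cd9, and the part of glial reads in Cd63 was not tested. Cd151, a partner of laminin-binding integrins, had means of 63.1 ± 72.3, 60.0 ± 65.0 and 43.1 ± 62.9, from 0 to 381, 274 and 255, and was detected in 86.8%, 75.5% and 67.3% of neurons. Neither differed by more than 1.46-fold in any comparison. Tspan5, of the group of tetraspanins that regulate the protease ADAM10, had its highest mean in Larynx neurons, at 50.6 ± 54.4 (0 to 211) against 25.5 ± 46.4 in ACP (0 to 250) and 22.5 ± 40.3 in ACV neurons (0 to 221), with medians of 35.2, 6.85 and 5.23.

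Tspan5 was 0.446 of the Larynx level in ACV neurons, and 82 of 98 ACV neurons lay below the Larynx median. It was 0.535 of the Larynx level among neurons with at most 900 counts of Apoe, past the limit no longer. Its detection was 82.7% in Larynx, 64.2% in ACP and 63.3% in ACV neurons, and 71.2%, 50.9% and 51.0% at a common depth. Larynx neurons, the shallowest type, were the highest in each of these measures.

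**Figure D5:**
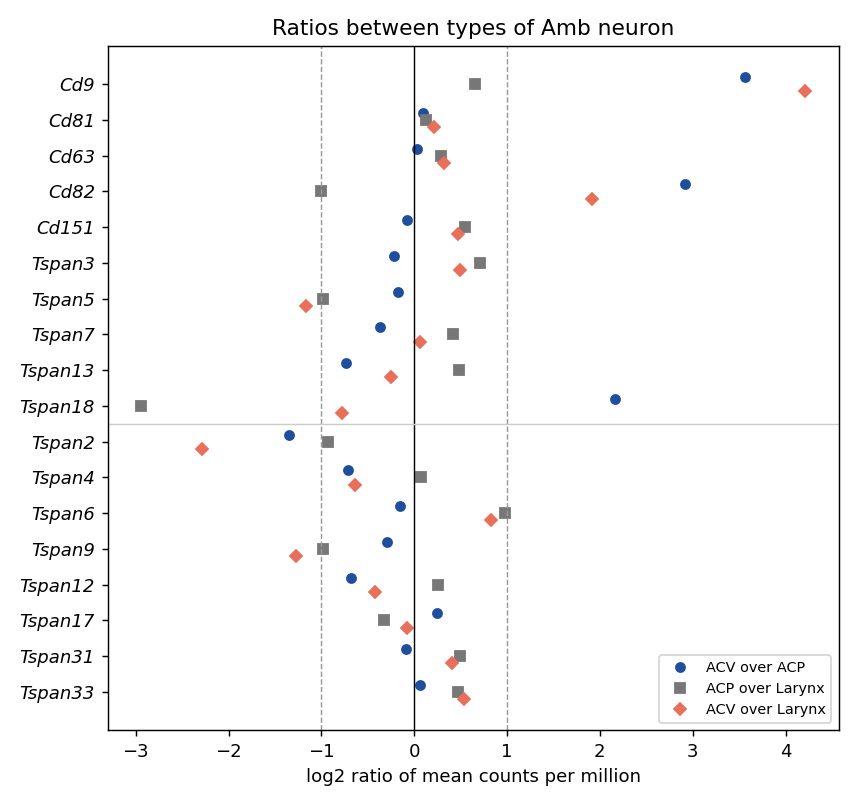
log2 ratio of the mean CPM in the 3 comparisons for the 10 genes (above the gray line) and for the 8 other tetraspanin genes with a count in 50% or more of the neurons of a type. Dashed lines mark 2-fold, and Cd9 lies at 3.56 and 4.21 for ACV over ACP and over Larynx, while Tspan18 lies at -2.95 for ACP over Larynx.

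Summed over the 10 genes, ACV neurons had the highest mean with Cd9 and ACP neurons without it. The summed level had a mean of 4382 ± 1653 in ACV, 4054 ± 1892 in ACP and 3232 ± 1378 in Larynx neurons (SD), and without Cd9 the means were 3493 ± 1192, 3979 ± 1883 and 3184 ± 1376. Cd9 made a median of 19.7% of the sum in ACV neurons, 1.26% in ACP and 0.254% in Larynx neurons. It had more counts than any other member in 22 of 98 ACV neurons and in none of the others, although this compares counts and not levels per length. A neuron held a median of 9 of the 10 genes in ACV and 8 in ACP and Larynx neurons.

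In single ACV neurons Cd9 went with Tspan3 (r = 0.69), Cd81 (0.67) and Tspan13 (0.49), and with Tspan5 at -0.26 and Cd63 at -0.01 (n = 98). In ACP neurons the r of Cd9 was 0.02 with Tspan3, 0.24 with Cd81, -0.01 with Tspan13, 0.11 with Tspan5 and 0.15 with Cd63 (n = 53). In Larynx neurons it was 0.03, -0.16, -0.21, 0.42 and 0.29 with the same genes (n = 52). Depth moves with Cd9 in ACV neurons, as given above, and its part in these values was not tested.

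Of the 26 other tetraspanin genes listed, 21 had a row, and 8 had a count in 50% or more of the neurons of a type. Of those that passed the filter, 3 of 14 were higher and 2 lower in ACV than in ACP neurons, 1 of 13 was higher and 2 lower in ACP than in Larynx neurons, and 3 of 15 were higher and 3 lower in ACV than in Larynx neurons. Over all genes the shares higher and lower were 8.63% and 9.87%, 10.3% and 12.5%, and 10.4% and 14.0% in these comparisons. Tspan2, a tetraspanin of oligodendrocytes and developing neurons, had the order opposite to Cd9, at 23.8 ± 52.1 in ACV, 60.7 ± 74.7 in ACP and 116 ± 159 in Larynx neurons (SD, n = 98, 53 and 52). It was 0.392 of the ACP and 0.205 of the Larynx level in ACV neurons. Tspan9 was 0.413 of the Larynx level in ACV neurons, at 27.6 ± 43.7 against 66.7 ± 85.8.

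The other genes of the family named by their detection, Tspan4, Tspan6, Tspan12, Tspan17, Tspan31 and Tspan33, stayed within 2-fold in each comparison, with Tspan6 near the limit at 1.97 in ACP over Larynx neurons. Tspan17, which like Tspan5 regulates ADAM10, had means of 270 ± 156, 320 ± 147 and 338 ± 233 in ACP, ACV and Larynx neurons, and Tspan6 of 263 ± 203, 236 ± 145 and 133 ± 120.

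The remaining genes past the limit were named after their values were seen, and single neurons weighed on most of them. Tspan14, which like Tspan5 regulates ADAM10, had a mean of 11.3 in ACV neurons (29 of 98 detected) and 24.0 in ACP neurons (23 of 53), a ratio of 0.470. Without the ACP neuron at 381 the ratio was 0.659, within the limit. Tspan15 was detected in 21 of 52 Larynx neurons at a mean of 34.7 against 5.55 in ACP and 5.96 in ACV neurons, and without the ACP neuron at 171 the ACP mean was 2.37 and the ratio of ACV to ACP 2.52 in place of 1.07. Its ratios to Larynx neurons, 0.160 in ACP (0.0683 without that neuron) and 0.172 in ACV neurons, stayed past the limit whichever neuron was left out.

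Cd37 and Cd53, which are known from leukocytes, had means of 2.11 and 16.6 in ACV neurons and were detected in 10 and 11 of 98. Without the highest ACV neuron, at 109 for Cd37 and 975 for Cd53, the mean of Cd53 was 6.76. The ratios to ACP neurons were then 3.37 in place of 7.09 and 2.58 in place of 6.34, and those to Larynx neurons 2.29 in place of 4.82 and 1.92 in place of 4.74, so that the call of Cd53 over Larynx neurons ended. Without the highest ACP neuron the ratios to ACP neurons were 33.9 and 12.6, and without the highest Larynx neuron those to Larynx neurons were 18.4 and 9.08. The microglial sum given above was highest in ACV neurons in its mean, and its part in these values was not tested. Tspan11 and Rom1 had means under 8 in each type, and Rom1 was 3.74-fold higher in ACP than in Larynx neurons (8.49 without the Larynx neuron at 61.0). Leaving out 1 neuron ended the calls of Tspan11 in ACV over ACP (2.10) and ACP over Larynx neurons (0.419) and of Rom1 in ACV over Larynx neurons (2.10). Without the ACP neuron at 33.5 the ratios of Tspan11 were 3.60 and 0.244, and without the Larynx neuron at 61.0 the last ratio of Rom1 was 4.77.

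Of 30 listed partners of tetraspanins 29 had a row. Higher in ACV than in ACP neurons were 3 of the 28 that passed the filter (Cd44, Itga5 and Notch2) and lower were 2 (Cdh2 and Epcam), beside 8.63% and 9.87% of all genes. Cd44, the hyaluronan receptor, was detected in 69 of 98 ACV neurons at 80.4 ± 110 (SD), in 8 of 53 ACP neurons at 14.9 ± 79.2 and in 24 of 52 Larynx neurons at 32.7 ± 62.2. Its mean in ACV neurons was 5.39-fold that in ACP and 2.46-fold that in Larynx neurons. The ACP mean rested on 1 neuron at 565, the next being at 128, and without it the mean was 4.33 and the ACV level 18.6-fold higher. Cdh2, N-cadherin, was 0.333 of the ACP level in ACV neurons, at 40.7 ± 46.0 against 122 ± 121, and stood at 59.9 ± 67.8 in Larynx neurons. Itga5 and Epcam had means under 4 in each type. Without 1 ACP neuron at 23.2 the ratio of Itga5 was 18.6 in place of 3.64, and without 1 ACV neuron at 108 that of Epcam was 0.172 in place of 0.486, though leaving out any 1 of 4 other neurons ended its call. Notch2 fell within the limit without 1 ACV neuron at 124, at 1.60 in place of 2.17.

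In ACP over Larynx neurons 2 of 27 partners were higher (Cdh2 and Epcam) and 7 lower (Cd44, Cldn11, Itga6, Itga7, Itgav, Notch2 and Ptgfrn), beside 10.3% and 12.5% of all genes, and in ACV over Larynx neurons 3 of 27 were higher (Cd44, Itga5 and Prkca) and 4 lower (Cldn11, Itga6, Itgav and Ptgfrn), beside 10.4% and 14.0%. Single neurons decided some of these calls. Without 1 Larynx neuron each, Notch2 was 0.805 of the Larynx level in ACP neurons in place of 0.425, and Itgav 0.611 in ACV neurons in place of 0.329 and 0.448 in ACP neurons in place of 0.241. Cd44 in ACP neurons was 0.133 of the Larynx level without the ACP neuron at 565 and 0.557 without the highest Larynx neuron, in place of 0.456. Epcam was 11.4-fold higher in ACP than in Larynx neurons, and Itga5 36.4-fold higher in ACV than in Larynx neurons, without 1 Larynx neuron, in place of 2.18 and 5.87. Leaving out 1 of 3 neurons ended the call of Epcam, 1 of 9 that of Cdh2 (2.04) and 1 of 52 that of Cldn11 (0.491) in ACP over Larynx neurons, and 1 of 4 that of Prkca (2.07) in ACV over Larynx neurons. Ptgfrn, whose protein binds CD9 and CD81 directly, was lower in both heart-traced types, at 14.9 ± 27.6 in ACP and 24.9 ± 61.6 in ACV against 61.4 ± 76.2 in Larynx neurons (SD). Igsf8, which encodes the other direct immunoglobulin partner and is named after its values were seen, had 103 ± 116, 89.1 ± 87.1 and 108 ± 123. Itga6, a subunit of laminin receptors, had 19.4 ± 49.4, 11.7 ± 29.5 and 45.6 ± 72.4. Ptgfrn thus had its highest mean in Larynx neurons, the type with the lowest mean of Cd9. Its lowest mean was in ACP neurons, and ACV neurons, the highest in Cd9, lay between. By median and detection ACV neurons were instead the lowest. The medians of Ptgfrn were 0.961 in ACP, 0 in ACV and 40.8 in Larynx neurons, with a count in 54.7%, 41.8% and 73.1%. Cldn11 is also one of the oligodendrocyte genes above. The median ratio of the partners was 0.867, 0.953 and 0.805 in ACV over ACP, ACP over Larynx and ACV over Larynx neurons, each below the median of all genes.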

How the data were processed

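The authors trimmed reads, aligned them to mm10 with STAR (version 2.6.1d per the labels) and deposited raw read counts of 24029 genes per neuron, without normalization. The counting program and its use of strand are not given in the sources used here. A deposited table named CPM was not used, because its columns do not sum to 1000000. Types were taken from the deposited annotation, and no doublet caller was run on neurons aspirated one by one under a microscope. Levels are counts per 1000000 of the total without Rn45s, and ratios are of mean levels over genes with a count in 10% or more of either type, with 2-fold as the limit. Shares have exact Clopper-Pearson 95% intervals. Correlations used the natural log of counts per 10000 plus 1. The ratio step was tested on simulated counts. The members and lists were chosen with earlier results of these data known. Genes named are the 10 members, family genes with a count in 50% or more of a type, listed partners past the limit, the 5 genes most like Cd9 and the markers, 1 of which is not reported here. Python 3.11.15, R 4.3.3, edgeR 4.0.16 (TMM) and DESeq2 1.42.0 (size factors) were used.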

Additional observations from a re-analysis of the deposited data

How the results depend on the processing

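The ratios of Cd9 kept their direction and moved by less than 1 SD of single neurons under every alternative run. These were totals with Rn45s, edgeR's TMM, DESeq2 size factors, thinning, neurons with at most 900 or (chosen after seeing the data) at most 1800 Apoe counts, neurons with at least 500000 counts outside Rn45s, the difference of mean log2 levels, and leaving out each neuron in turn. The log2 ratio ran from 3.53 to 4.65 for ACV over ACP, 0.51 to 1.52 for ACP over Larynx and 4.18 to 6.17 for ACV over Larynx. The SD used here is the spread of log2(CPM + 1) over single neurons and not an error of the ratio. It is wide, so staying within it is a weak check. For ACV over Larynx a move from 4.21 to 6.17 stayed within it. No called member changed sign. TMM and DESeq2 size factors changed no number of members past the limit. Leaving out single neurons for the other family genes and the partners was also chosen after seeing the data.

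The numbers of members higher and lower depended on the setting. In ACV over ACP a limit of 1.5-fold gave 1 lower in place of 0. In ACP over Larynx 0 were higher, but 3 with Rn45s in the totals, 1 with at most 900 Apoe counts, and 2 with mean log2 levels or a limit of 1.5-fold. There 2 were lower, but 1 with Rn45s in the totals, with thinning, with at least 500000 counts and at 4-fold, and from 1 to 3 on leaving out each neuron. In ACV over Larynx 2 were higher, but 4 with Rn45s in the totals and 1 at 4-fold, and 1 was lower, but 0 with Rn45s in the totals, at most 900 Apoe counts or 4-fold, and 2 with at least 500000 counts or 1.5-fold.

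The genes past the limit, higher and lower, numbered 1153 and 1318 in ACV over ACP, 1369 and 1653 in ACP over Larynx and 1382 and 1858 in ACV over Larynx. At 1.5-fold they were 2134 and 2469, 2590 and 2945, and 2685 and 3267, and at 4-fold 371 and 393, 437 and 493, and 463 and 542. Without a detection filter they were 3783 and 3180, 3429 and 4094, and 3897 and 4096, and with one of 25% 537 and 789, 817 and 1016, and 764 and 1282. With mean log2 levels they were 327 and 664 in ACV over ACP, 1179 and 529 in ACP over Larynx and 1093 and 894 in ACV over Larynx. With Rn45s in the totals they were 3399 and 695 in ACP over Larynx and 3281 and 955 in ACV over Larynx. The cause was not tested, apart from the limits and filters, which change the number of genes by construction. At 118492 counts 1 count is a level of 8.44. Thinning to this total, which can only lower detection, took Cd82 in ACV neurons from 38.8% to 36.7%. It took Tspan18 in ACP neurons from 37.7% to 22.6% and Tspan5 in Larynx neurons from 82.7% to 71.2%. The part of depth in the detection of these genes was not tested. No paired analysis was possible because the neurons carry no shared replicate numbers.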
